A study of Saccharomyces cerevisiae with 12 samples.

Results

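Untreated cultures of the budding yeast Saccharomyces cerevisiae were compared between an early and a late stage by the rank of each gene within its own library. The genes compared were open reading frames of the nuclear chromosomes (systematic names that begin with Y) that were in both deposited tables and above 0 in all 6 control libraries. Of 6685 open reading frames in both tables, 5207 met this rule. Early values carry no unit in the deposited table and were read as TPM (abundance corrected for gene length and brought to 1 total in each library) from their column sums, and late values are labelled FPKM (fragments scaled by gene length and sequenced fragments). The tables were scaled separately, so no value was compared across them directly and no test between stages was made. Each gene was given a percentile rank in each library, from near 0 for the lowest of the 5207 to near 100 for the highest, and the difference is the mean of the 3 late ranks minus the mean of the 3 early ranks. A gene stood higher (or lower) late where the 3 late ranks did not overlap the 3 early ranks and the difference was at least 20 percentile points.

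All cells were BY4742, a haploid laboratory strain of mating type alpha derived from the reference strain, grown in synthetic dextrose complete medium. The groups used were 3 early and 3 late control libraries without NaHS, 6 of the 12 libraries. Early means less than 72 h and late more than 72 h after inoculation. The labels state this as the time of treatment, the hour of sampling is not given, and nothing says whether replicates came from separate cultures. Early and late below are therefore stage names from the labels, and stage, table and quantification cannot be told apart. The marker genes HIS3, LEU2, LYS2 and URA3 are altered in this strain. HIS3 was at 301 to 345 TPM early and at 378 to 522 FPKM late, and LEU2, LYS2 and URA3 were at 0 in each of the 6. Of the alpha-cell genes, STE3, MF(ALPHA)1, SAG1 and MATALPHA1 were above 0 in every library and MF(ALPHA)2 was at 1.37 to 4.14 TPM early and at 0 in all 3 late libraries. Of the a-cell genes, MFA1 and MFA2 were at 0 in every library, STE2, AGA2 and BAR1 were at 1.34 to 7.23 TPM early and at 0 late, and STE6 was at 0.51 to 0.85 TPM early and 0.197 to 0.601 FPKM late.

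Yeast that is fed glucose ferments it to ethanol, represses the genes for other carbon sources and spends much of its transcription on ribosomes. When glucose runs out the cells pass through the diauxic shift, take up ethanol and acetate through the glyoxylate cycle and gluconeogenesis, store trehalose and glycogen, and shut down ribosome synthesis. The zinc-finger factors Msn2 and Msn4 bind the stress response element (STRE), and a pair of elements called PAC and RRPE mark promoters of ribosome assembly genes.

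Upstream sequence of 5 genes is printed here because each was the member with the largest difference in its gene list and its promoter holds the letters whose share differed between genes that stood higher and lower late. Each run spans bases 300 to 101 before the start codon on the coding strand of the R64 reference (RefSeq), 5′ to 3′. Capitals mark PAC (GATGAG or its reverse complement) and the RRPE core (AAATTTTT or its reverse complement) in the genes that stood higher late.
NSR1: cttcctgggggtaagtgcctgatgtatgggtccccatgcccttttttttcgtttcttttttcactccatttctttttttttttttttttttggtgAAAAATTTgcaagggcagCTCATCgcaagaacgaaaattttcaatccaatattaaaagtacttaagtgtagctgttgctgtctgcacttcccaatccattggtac
RPA49: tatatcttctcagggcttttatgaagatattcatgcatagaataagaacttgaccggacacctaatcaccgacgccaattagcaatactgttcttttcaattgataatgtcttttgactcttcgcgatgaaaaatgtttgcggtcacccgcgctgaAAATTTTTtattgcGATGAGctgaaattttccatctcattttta
In the genes that stood lower late, capitals mark the STRE (AGGGG or its reverse complement).
PGM2: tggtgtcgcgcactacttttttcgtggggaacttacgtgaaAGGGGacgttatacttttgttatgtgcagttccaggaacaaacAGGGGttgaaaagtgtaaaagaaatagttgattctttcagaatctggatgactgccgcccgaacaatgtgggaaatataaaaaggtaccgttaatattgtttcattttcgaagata
RTN2: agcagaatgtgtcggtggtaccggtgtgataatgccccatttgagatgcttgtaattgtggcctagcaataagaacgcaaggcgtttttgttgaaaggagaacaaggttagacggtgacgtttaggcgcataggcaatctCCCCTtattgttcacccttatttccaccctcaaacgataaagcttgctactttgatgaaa
SFC1: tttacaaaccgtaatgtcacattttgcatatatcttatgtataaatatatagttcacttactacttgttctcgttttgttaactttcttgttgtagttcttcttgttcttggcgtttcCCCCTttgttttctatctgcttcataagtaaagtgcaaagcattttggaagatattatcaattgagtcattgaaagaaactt
The runs lie at chrVII:807757-807956, chrXIV:182709-182908 and chrXIII:477707-477906 on the minus strand, and at chrIV:94305-94504 and chrX:609473-609672 on the plus strand. NSR1 held PAC 187 and the RRPE core 205 bases before the start codon, and RPA49 held them at 130 and 144 bases. PGM2 held STREs at 259 and 216 bases, RTN2 at 160 and SFC1 at 182.

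The late libraries were less alike than the early ones. The correlation of ranks over the 5207 genes lay between 0.993 and 0.995 among early libraries, between 0.963 and 0.982 among late libraries and between 0.767 and 0.841 across stages. These genes held 93.3% to 93.8% of the early column totals and 89.7% to 93.4% of the late ones, and ribosomal RNA entries held 3.60% of late control 3 against 0.267% and 0.959% of late controls 1 and 2. A further 1051 open reading frames were above 0 in all early libraries and at 0 in at least 1 late library, 805 of them in all 3, and they could not be ranked. A value of 0 late need not mean absence, since RPA190 and RPA43, which encode essential subunits of RNA polymerase I, were listed at 0 in all 3. Late control 2 stood apart in this respect, with 89 such genes at 0 in it alone against 39 in late control 1 alone and 23 in late control 3 alone.

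Ranks moved widely between stages. Of the 5207 genes, 543 (10.4%) stood higher late and 545 (10.5%) stood lower late. By non-overlap alone, 1968 genes (37.8%) were above their early ranks and 2003 (38.5%) below. A difference of at least 50 points was reached by 42 genes that stood higher and 43 that stood lower. On log2 of each gene's share of the summed values, with a minimum difference of 1, 727 genes stood higher and 2291 lower. On that scale the median gene's share was 0.78 lower late, and higher calls were 24.1% of all calls against 49.9% by rank. The boundary was close on both sides, with YHR070C-A at 20.01 and RFC4 at 19.98 points, and GPX1 at -20.02 and YCT1 at -19.99. Ribosome assembly genes, which are known from growing cells, ranked higher in the libraries labelled late and glyoxylate cycle genes, which are known from cells without glucose, in the libraries labelled early, and the labels were kept as given. RNA was from whole cultures, so fewer cells expressing a gene and less RNA of it per cell cannot be told apart.

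**Figure D1:**
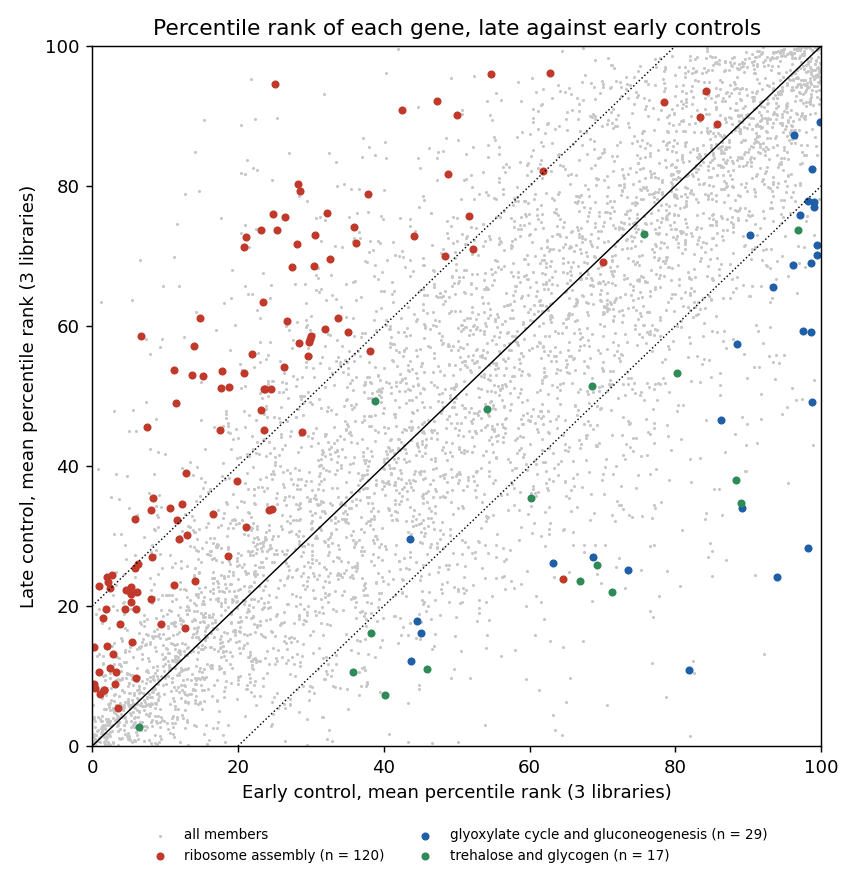
Mean percentile rank of each of the 5207 genes in the 3 early control libraries (horizontal axis) and the 3 late ones (vertical axis); dotted lines mark differences of 20 points. Of 120 ribosome assembly genes (red), 70 stood higher late, whereas 24 of 29 glyoxylate and gluconeogenesis genes (blue) and 12 of 17 trehalose and glycogen genes (green) stood lower.

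Genes were placed as higher or lower by their ranks in these same libraries, so the direction of their summed shares was set by that rule. Only the size of the shares is described here. Together the genes that stood higher late made up 1.21%, 1.23% and 1.41% of the summed values of the 5207 genes in early controls 1 to 3 and 11.9%, 8.31% and 9.73% in late controls 1 to 3. Genes that stood lower late made up 13.5%, 13.5% and 12.7% early and 0.634%, 0.670% and 0.804% late. The late libraries were also more uneven. The 100 highest genes held 35.3% to 36.1% of the sum early and 49.0% to 55.6% late.

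By the 20-point rule, ribosome assembly had more genes on the higher side than any other list, whereas by non-overlap alone cytosolic ribosomal proteins had more. The list of ribosome assembly factors had 120 ranked members, of which 70 stood higher late and 1 lower, against 10.4% and 10.5% of all genes. Their median difference was 22.8 points, beside -0.0064 for all 5207, and in 115 the late ranks lay above all early ranks. As a share of the summed values the list took 0.183, 0.188 and 0.205% early and 1.05, 0.55 and 0.806% late. The late libraries differed among themselves, with late control 2 lowest, and none came down to the early range.

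NSR1 (chrVII:806412-807656) encodes a nucleolar protein needed to process the precursor of ribosomal RNA. In libraries 1 to 3 in turn, here and below, it was listed at 5.46, 6.33 and 9.77 TPM early and 1685, 822 and 979 FPKM late. Its percentile rank was 25.1 ± 4.49 early and 94.5 ± 2.08 late (SD, n = 3 each), a difference of 69.4 points and the largest of the list. RRB1, which escorts the ribosomal protein Rpl3 into assembly, was listed at 7.7, 7.58 and 11 TPM early and 254, 115 and 151 FPKM late and its rank went from 28.3 to 80.3. NOG1, a GTPase of the large-subunit precursor, had 5.52, 6.17 and 6.7 TPM early and 178, 50.9 and 119 FPKM late. In each of these genes the lowest late value was in late control 2. The core enzymes that modify ribosomal RNA ranked higher too: the pseudouridine synthase gene CBF5 went from 20.8 to 71.3, NOP58 of the methylation particles from 25.3 to 73.7, and the methyltransferase gene NOP1 from 54.7 to 95.9. RRP5, which acts in the assembly of both subunits, was the exception, at 43.1, 70.6 and 76.1 TPM early and 8.37, 4.3 and 6.87 FPKM late, with its rank 64.6 ± 5.76 early and 23.9 ± 4.13 late.

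RNA polymerase I transcribes the large ribosomal RNA and RNA polymerase III the 5S RNA and transfer RNAs. Of 32 ranked members of these enzymes and their factors, 15 stood higher late (46.9%, against 10.4% of all genes) and 0 lower. The median difference was 18.2 points. RPA49 (chrXIV:181361-182608), a polymerase I subunit active in initiation and elongation, was listed at 1.5, 0.89 and 1.72 TPM early and 119, 49.1 and 79.5 FPKM late. Its early ranks were near the bottom and its late ranks in the upper part, 6.57 ± 2.15 early and 69.4 ± 7.5 late. RPA135, the second-largest polymerase I subunit, had 5.39, 6.7 and 8.68 TPM early and 250.1, 111 and 192 FPKM late. The small subunit RPA12 went from 21.2 to 83.7 and the polymerase III subunit RPC11 from 21.5 to 71.2. A further 5 listed genes, RPA190 and RPA43 among them, were at 0 in late libraries and have no rank difference.

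Ribosomal protein genes were already near the top early, so their ranks had little room. Of 132 cytosolic ribosomal protein genes, 15 stood higher late (11.4%, near the 10.4% of all genes) and 0 lower by the 20-point rule. Yet in 129 the late ranks lay above all early ranks, against 37.8% of all genes. Their share of the summed values was 7.24, 7.69 and 9.18% early and 33.9, 30.6 and 30.6% late. RPL22B, the minor copy of the Rpl22 pair, had the largest difference of the list, with 1.54, 2.47 and 6.62 TPM early and 155, 155 and 139 FPKM late and ranks of 14.6 ± 8.7 early and 79.2 ± 1.1 late. Near-identical copies fill this family, and how reads were shared between them is not known. RPS26A, at 1691, 1631 and 1914 TPM early, was listed at 0 in all 3 late libraries and is outside the 132.

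Translation factors followed the same side, with 14 of 36 higher late (38.9%, against 10.4% of all genes), 1 lower and a median of 15.9 points. SUP45, the release factor that reads stop codons, was listed at 10.1, 11.2 and 14.1 TPM early and 142, 58.7 and 85.5 FPKM late. YEF3, the fungal elongation factor 3, had 77.6, 80.1 and 119.8 TPM early and 3366, 1553 and 2859.9 FPKM late, and its paralog HEF3 was the member that stood lower, at 42.9, 37.4 and 36.8 TPM early and 8.66, 5.27 and 5.84 FPKM late. The pair thus parted, with YEF3 above and HEF3 below their early ranks in all 3 late libraries. TEF1 and TEF2, the identical pair for elongation factor 1A, were among the 10 highest genes in both stages.

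Purine and one-carbon genes had more than the background share on the higher side. Of 30 purine and one-carbon genes, 16 stood higher (53.3%, against 10.4% of all genes) and 1 lower (PHO2, which is also a phosphate regulator). The median was 21.9 points. ADE4, which catalyses the committed step of purine synthesis, had 13.3, 12.1 and 12.6 TPM early and 181, 147 and 162 FPKM late, a rank 34.5 ± 0.497 early and 80.3 ± 2.35 late. AAH1, the adenine deaminase that is known to be shut off on entry to quiescence, had 17.1, 22.8 and 25.6 TPM early and 958, 420.1 and 518 FPKM late and went from 44.6 to 91.3. The CTP synthase gene URA7, on none of the lists, was listed at 2.21, 2.19 and 4.09 TPM early and 243, 86 and 156 FPKM late, with a difference of 66.1 points.

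**Figure D2:**
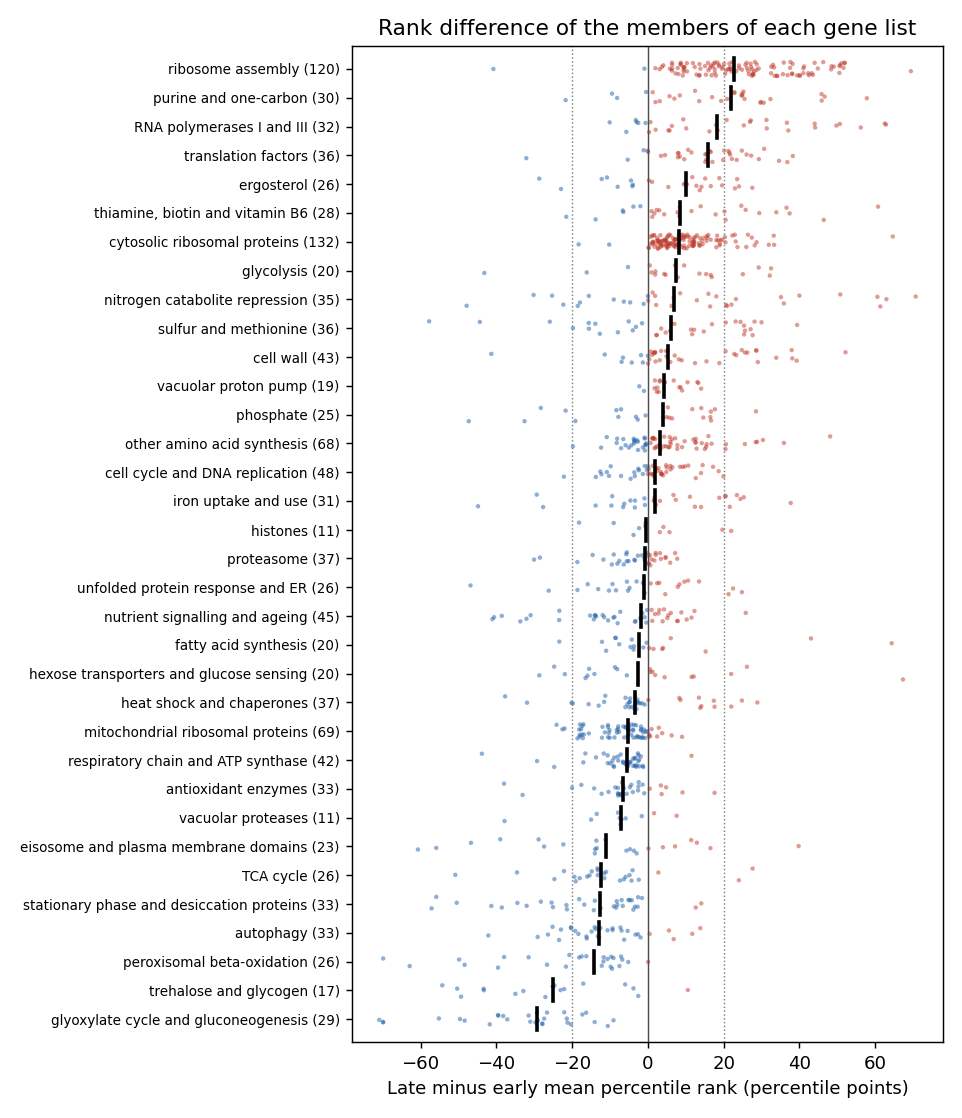
Difference in mean percentile rank, late minus early, of each ranked member (points) of 34 gene lists, with the number of ranked members in brackets and the list median as a black bar. Medians ran from -29.3 points for glyoxylate cycle and gluconeogenesis to 22.8 for ribosome assembly, and the vertical dotted lines mark 20 points either way.

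The low-affinity hexose transporter genes HXT1 and HXT3 stood higher late, within a list that moved both ways. Hexose transporters of low affinity serve abundant glucose and those of high affinity serve scarce glucose. HXT1 (chrVIII:290913-292625), the low-affinity transporter that glucose induces, was listed at 4.35, 6.59 and 6.53 TPM early and 532, 629 and 271 FPKM late, with ranks of 22.3 ± 3.35 early and 89.6 ± 2.86 late. HXT3, also of low affinity, had 95.2, 88.6 and 84.9 TPM early and 1728, 3693 and 2154 FPKM late. The list of 20 transporters and glucose sensors was mixed, with 3 higher and 3 lower (15% each, against 10.4% and 10.5% of all genes). Its median was -2.52 points. MIG1, the repressor that acts when glucose is present, was among the lower ones, going from 79.2 to 50.5.

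Glycolysis had 20 ranked members, 4 higher late (20%, against 10.4% of all genes) and 1 lower by the 20-point rule, and 17 with no overlap upward, against 37.8% of all genes. Its share of the summed values was 2.4, 2.46 and 2.45% early and 10.1, 13.7 and 10.6% late. ENO2, the enolase gene that glucose induces, was listed at 66.3, 74.9 and 69.9 TPM early and 11909, 19903 and 10295 FPKM late and moved from 67.3 to 99.8. PFK1 and PFK2, which encode phosphofructokinase, went from 44.8 to 77 and from 69.9 to 94.9. ADH1, which makes ethanol, was high in both stages and so could not gain 20 points, but it took 0.179, 0.198 and 0.204% early and 1.94, 3.04 and 2.24% late of the summed values. In late controls it was the highest gene by mean rank, followed by TEF1 and FBA1, the gene for aldolase. PYK2, the minor pyruvate kinase gene, was the member that stood lower, at 138, 143 and 122 TPM early and 8.12, 16.1 and 11.1 FPKM late.

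Genes for growth without glucose were lower late in every ranked member. All 29 genes of the glyoxylate cycle, gluconeogenesis and use of acetate, lactate, glycerol and fatty acids ranked below all their early ranks in the 3 late libraries, against 38.5% of all genes. Of these, 24 passed 20 points (82.8%, against 10.5% of all genes). The median was -29.3 points. The list took 4.39, 4.34 and 3.96% early and 0.137, 0.124 and 0.162% late of the summed values, with each late library below each early one. SFC1 (chrX:609773-610741), which carries succinate into mitochondria in exchange for fumarate, was listed at 216, 179 and 167 TPM early and 3.04, 1.72 and 2.39 FPKM late, and its rank was 81.8 ± 1.8 early and 10.9 ± 2.27 late. ADY2, the acetate transporter, had 2075, 2168 and 1564 TPM early and 5.6, 10.8 and 9.02 FPKM late. CAT2, carnitine acetyltransferase, which passes acetyl units between organelles, had 725, 694 and 618 TPM early and 6.1, 5.61 and 7.64 FPKM late. The differences of these 3 genes were -70.9, -69.9 and -69.9 points.

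Enzymes specific to gluconeogenesis and to the glyoxylate cycle differed by fewer points than SFC1, ADY2 and CAT2. FBP1 and MLS1 still moved further than the list median of -29.3 points, whereas PCK1 and ICL1 moved less. FBP1, fructose-1,6-bisphosphatase, was listed at 2487, 2209.9 and 2260.0 TPM early and 25.6, 59.7 and 55.5 FPKM late and went from 98.7 to 59.2. PCK1, phosphoenolpyruvate carboxykinase, went from 93.4 to 65.5, and MLS1, malate synthase, from 97.5 to 59.3. ICL1, isocitrate lyase, was among the 10 highest genes early and did not reach 20 points, at 5317, 5206 and 5180.3 TPM early and 512, 305 and 492 FPKM late, with ranks of 99.8 ± 0.040 early and 89.2 ± 3.14 late. Its values in all 3 late libraries still placed it below its early ranks. ADR1, the activator of many of these genes, went from 45.1 to 16.1, while CAT8, a further activator, was at 8.51, 8.07 and 7.88 TPM early and at 0 in all late libraries.

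Peroxisomal beta-oxidation, the sole fatty acid degradation path of yeast, had 26 ranked members, 10 lower (38.5%, against 10.5% of all genes) and 0 higher late. The median was -14.2 points. FAA2, which activates fatty acids in the peroxisome, was at 64, 60.7 and 54.6 TPM early and 0.346, 0.406 and 0.407 FPKM late, and its late ranks were among the lowest, 64.4 ± 1.41 early and 1.54 ± 0.358 late. POX1, acyl-CoA oxidase, went from 43.7 to 12.2, and POT1, the thiolase, from 86.2 to 46.6. Peroxisomal catalase (CTA1) went from 93.9 to 55.9. CAT2, FOX2, POT1, POX1, IDP3 and MDH3 were also on the list above, so those counts are not separate.

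**Figure D3:**
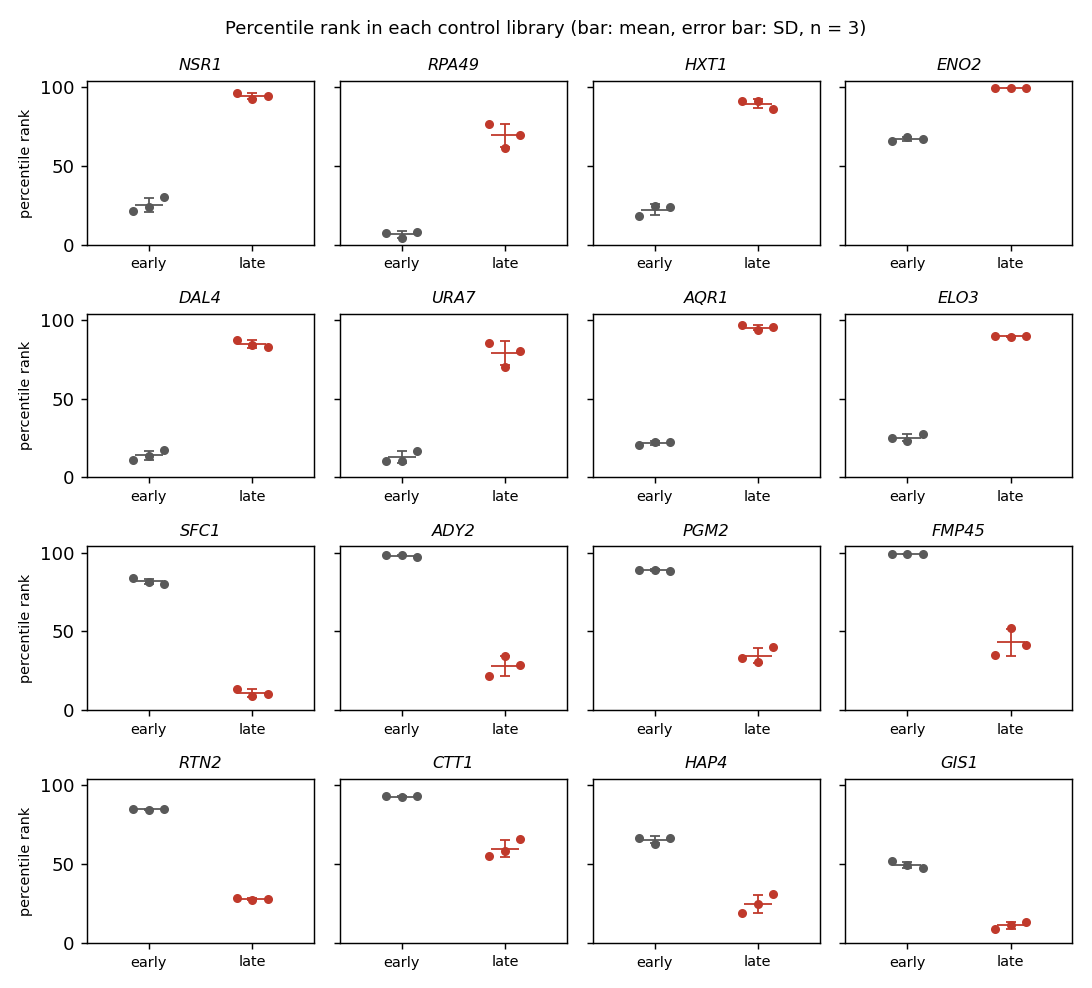
Percentile rank (vertical axis, 0 to 100) of 16 named genes in each early (grey) and late (red) control library, with the mean and SD of 3. The 8 genes of the upper rows stood higher late and the 8 of the lower rows stood lower, and no early and late points overlap in any panel.

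Reserve carbohydrate genes were lower late. Of 17 ranked trehalose and glycogen genes, 12 stood lower (70.6%, against 10.5% of all genes) and 0 higher, with a median of -25.2 points. Another 7 of the 24 listed were at 0 in late libraries. PGM2 (chrXIII:475897-477606), the main phosphoglucomutase, was listed at 343, 349 and 315 TPM early and 11.4, 8.61 and 16.5 FPKM late, with ranks of 89 ± 0.603 early and 34.7 ± 4.92 late. TPS2, trehalose-phosphate phosphatase, had 312, 315 and 313 TPM early and 9.56, 12.4 and 22.6 FPKM late. GSY2, the main glycogen synthase, had 92.2, 93 and 84.1 TPM early and 6.83, 3.5 and 7.17 FPKM late. Each late rank of these 3 genes was below each of their early ranks. GDB1, the glycogen debranching enzyme, went from 66.9 to 23.6, and the neutral trehalase NTH1, which degrades trehalose, stayed near its early rank, from 75.7 to 73.1. GLC3, the glycogen branching enzyme, was at 322, 302 and 287 TPM early and at 0 in all 3 late libraries.

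Proteins known from stationary and dried cells had 33 ranked members, 12 lower (36.4%, against 10.5% of all genes) and 0 higher late. Their median was -12.5 points, and their share of the summed values was 4.96, 4.92 and 4.58% early and 0.582, 0.74 and 0.777% late. RTN2, a reticulon-like protein of the endoplasmic reticulum, was listed at 239, 229 and 239 TPM early and 8.6, 7.2 and 8.74 FPKM late and its ranks were 85 ± 0.293 early and 27.9 ± 0.575 late. FMP45, a membrane protein of cell cortex patches, was listed at 2712, 2737 and 2649.7 TPM early and 12.6, 29.1 and 17.7 FPKM late. SPG1, named for its need in stationary phase, had 1255, 1264 and 1099.5 TPM early and 25.3, 125 and 76.6 FPKM late, with late control 1 lowest. SPI1, a cell wall protein of late growth and the most abundant member early, stayed near the top, from 99.9 to 95.6. UBI4, the stress polyubiquitin gene, was at 1958, 1885 and 1879 TPM early and at 0 late, and is not among the 33.

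Autophagy, which delivers cell contents to the vacuole, had 8 of 33 genes lower (24.2%, against 10.5% of all genes) and 0 higher late. The median was -12.9 points. ATG39, a receptor for autophagy of the nuclear envelope, had 196, 213 and 207 TPM early and 12.6, 23.1 and 16.5 FPKM late. ATG7, the activating enzyme of the conjugation system, had 16.5, 14.9 and 13.7 TPM early and 2.06, 1.51 and 1.87 FPKM late, and ATG8, the conjugated tag, went from 89.9 to 75.9, which was under 20 points. Of 23 eisosome and plasma membrane domain genes, 7 stood lower (30.4%) and 1 higher (4.35%), against 10.5% and 10.4% of all genes. Among the lower was PIL1, the eisosome core, which went from 98.1 to 75.7. The higher one was the uracil permease gene FUR4, which went from 36.4 to 76.1.

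Respiration moved less by rank. Of 42 ranked genes of the respiratory chain and ATP synthase, 3 stood lower (7.14%, against 10.5% of all genes) and 0 higher, while 40 had late ranks below all early ranks, as had 38.5% of all genes, and the list's share was 6.51, 6.33 and 6.45% early and 1.67, 2.08 and 2.32% late. NDE2, an external NADH dehydrogenase, had 386, 388 and 328 TPM early and 22.5, 21.8 and 20.3 FPKM late and went from 89.8 to 46. COX6, a subunit of cytochrome oxidase, had 603, 564 and 622 TPM early and 86, 23.4 and 89.96 FPKM late, with late control 2 far below the others. In the TCA cycle 4 of 26 genes stood lower (15.4%) and 2 higher (7.69%), against 10.5% and 10.4% of all genes. By non-overlap alone 22 were lower and 2 higher, against 38.5% and 37.8% of all genes. The TCA list's share was 1.9, 1.83 and 1.85% early and 0.554, 0.517 and 0.667% late. KGD1, of the 2-oxoglutarate dehydrogenase complex, had 222, 209.7 and 227 TPM early and 6.87, 8.53 and 21 FPKM late. MAE1, the malic enzyme, was on the other side at 87, 81.4 and 90.4 TPM early and 3351, 4377 and 3608 FPKM late, with every late rank above every early one. Mitochondrial ribosomal proteins had 3 of 69 lower (4.35%) and 0 higher, with a median of -5.36 points. By non-overlap alone 42 of them were lower and 2 higher.

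Antioxidant enzymes had 3 of 33 lower late (9.09%, against 10.5% of all genes) and 0 higher, with a median of -6.61 points. By non-overlap alone 25 were below their early ranks and 5 above, against 38.5% and 37.8% of all genes. The list's share of the summed values was 2.67, 2.58 and 2.62% early and 0.648, 0.783 and 0.74% late. CTT1, the cytosolic catalase, was listed at 589, 508 and 608 TPM early and 34.5, 41.2 and 63 FPKM late, with ranks of 92.9 ± 0.421 early and 59.9 ± 5.53 late. SOD1, the copper-zinc superoxide dismutase, ranked among the 10 highest genes early and went from 99.9 to 97.4, and SOD2, its mitochondrial counterpart, went from 98.3 to 92. GPX1 lay at the boundary and kept its place on the lower side in 4 of 6 repeats that left out a library.

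**Figure D4:**
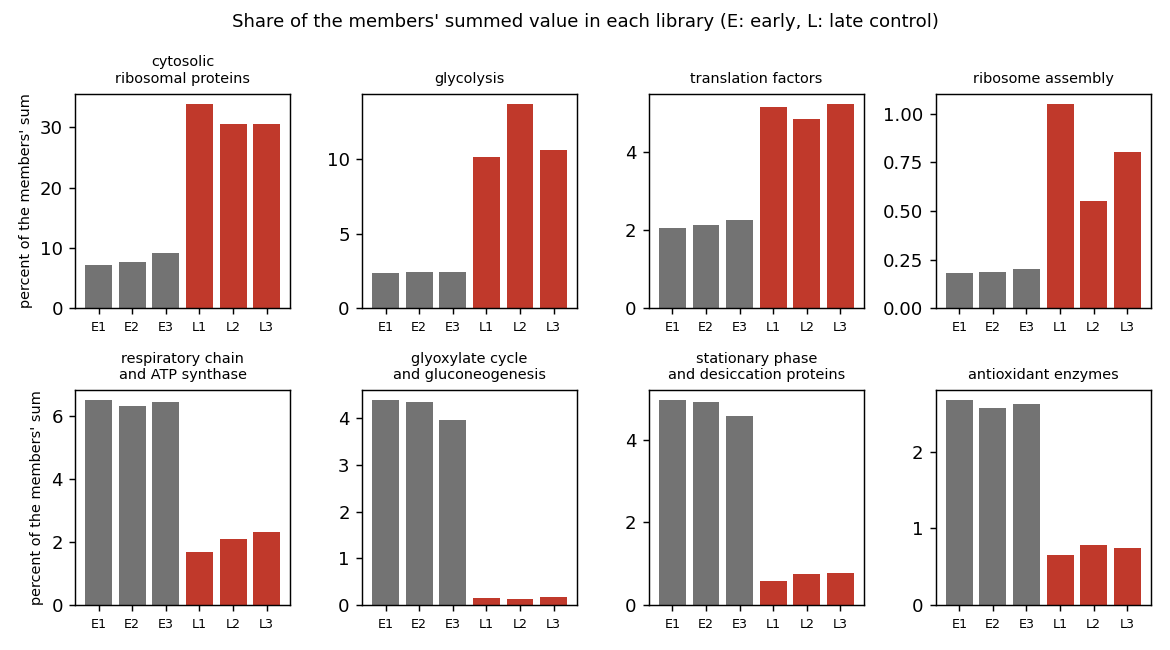
Percent of the summed values of the 5207 genes taken by 8 gene lists in early controls 1 to 3 (E1 to E3, grey) and late controls 1 to 3 (L1 to L3, red). Cytosolic ribosomal proteins lay between 7.24% and 9.18% early and between 30.6% and 33.9% late, and glyoxylate and gluconeogenesis genes between 3.96% and 4.39% early and between 0.124% and 0.162% late.

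Gene pairs that encode alternative forms of an enzyme give a comparison free of library scaling, since both values come from the same library. The ratio does not remove effects of how reads were shared between similar copies, which is not known and may differ between the tables. Of 54 listed pairs, 48 had both genes ranked. The log2 ratio did not overlap between stages in 42, and it differed by at least 2 in 24 of them, 20 lower and 4 higher late with each numerator as plotted. ADH2, which consumes ethanol, over ADH1, which makes it, had log2 ratios of 0.75, 0.65 and 0.60 early and -8.11, -8.41 and -8.05 late. ADH2 was thus above ADH1 in every early library and far below it in every late one. HXT5, a transporter of slow growth, over HXT1 went from 7.99 ± 0.38 to -1.08 ± 0.68, and the high-affinity HXT7, which is nearly identical to HXT6, over the low-affinity HXT3 from 5.05 ± 0.08 to -2.14 ± 0.77. PYK2 over CDC19, the main pyruvate kinase, went from -0.74 ± 0.41 to -9.99 ± 0.13, the largest shift.

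Several other metabolic pairs moved the same way. The hexokinases HXK1 over HXK2 went from 3.54 to -1.62 and glucokinase GLK1 over HXK2 from 7.48 to 1.45. The acetyl-CoA synthetases ACS1 over ACS2 went from 4.72 to -0.48, the glycerol-phosphate dehydrogenases GPD1 over GPD2 from 2.44 to -3.77, the branched-chain transaminases BAT2 over BAT1 from 0.56 to -4.69, and the transketolases TKL2 over TKL1 from 3.54 to -4.36. For ENO1 over ENO2, nearly identical genes whose reads may have been shared, the ratio went from 3.49 to -0.59. Of 10 pairs that were higher late with no overlap, 4 differed by at least 2. They were TEF4 over CAM1, AAC3 over PET9, SAM1 over SAM2 and RPL22B over RPL22A, of which SAM1 over SAM2 went from 2.26 to 4.80. Pairs that rose by less included LYS21 over LYS20, from -1.42 to 0.54, and TDH1 over TDH3, from -2.05 to -1.20. In SOD2 over SOD1, TRX2 over TRX1, TSA2 over TSA1, CTT1 over CTA1, CYC7 over CYC1 and SSA3 over SSA2 the early and late ratios overlapped. The glutaredoxin pair GRX1 over GRX2 did not overlap and went from -0.32 to 1.20, a difference under 2.

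**Figure D5:**
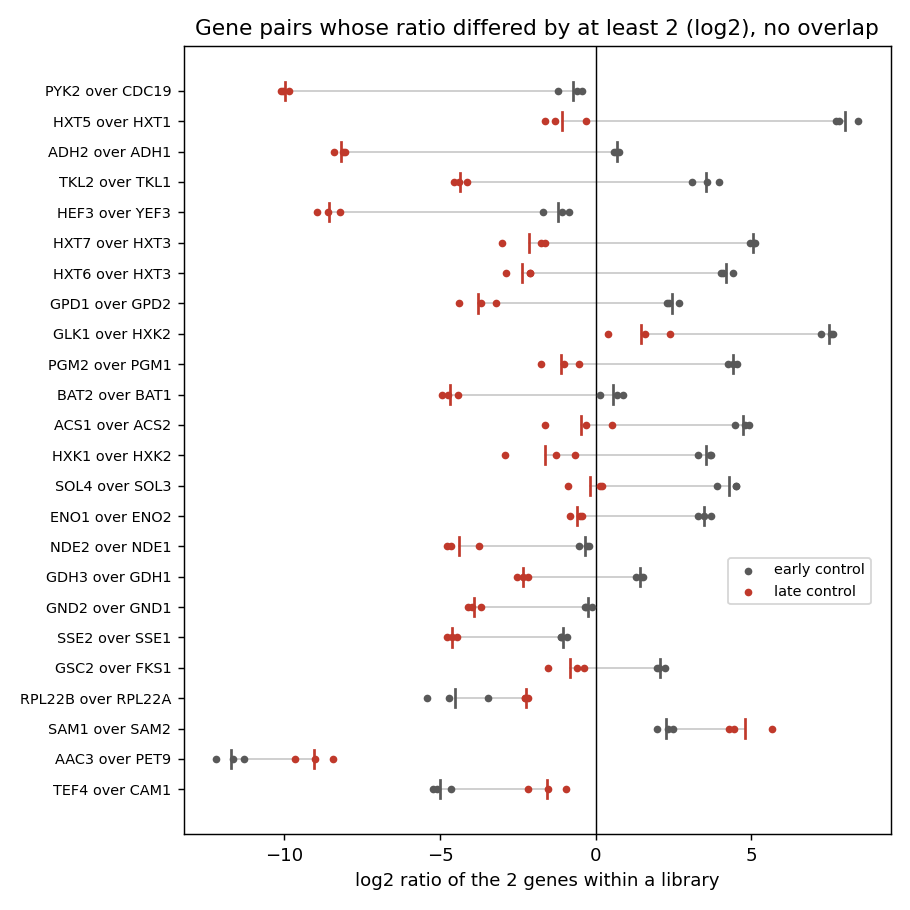
Log2 ratio of the deposited values of 2 genes within each early (grey) and late (red) control library for the 24 pairs whose ratios did not overlap and differed by at least 2; vertical ticks are means of 3. In ADH2 over ADH1 the early points lie between 0.60 and 0.75 and the late points between -8.41 and -8.05.

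Of 35 ranked genes under nitrogen catabolite repression, which silences poor nitrogen sources while good ones last, 12 stood higher late (34.3%, against 10.4% of all genes). A further 4 stood lower (11.4%, near the 10.5% of all genes). DAL4 (chrIX:408468-410375), the allantoin permease, was listed at 2.38, 3.02 and 4.15 TPM early and 293, 266 and 192 FPKM late, with ranks of 14.1 ± 2.98 early and 84.8 ± 2.32 late. DAL5, the allantoate permease, had 2.44, 1.88 and 3.17 TPM early and 135, 77.7 and 116 FPKM late, and UGA4, the GABA permease, had 10.1, 8.95 and 13.6 TPM early and 694, 919.9 and 739 FPKM late. The ammonium permease MEP2 went from 77.2 to 98.1, and the GATA-factor genes DAL80 and GAT1 went from 5.05 to 45 and from 73.2 to 93.8. The lower ones included AGP2, linked to carnitine uptake, which went from 91.2 to 43.3, and PUT1, proline oxidase, which went from 65.9 to 40.6.

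The allantoin cluster was also the longest run of neighbouring genes on one side. On chrIX:404873-415617, 7 adjacent ranked genes stood higher late: YVH1, a phosphatase that acts in ribosome maturation, then DAL1, DAL4, DAL2, DCG1, DAL7 and DAL3. DAL3, which releases urea, had 44.4, 43.7 and 56.3 TPM early and 909, 1989 and 1158 FPKM late, and DAL7, an allantoin-induced malate synthase, had 5.72, 5.12 and 6.29 TPM early and 237, 176 and 191 FPKM late. DAL1 and DAL2, the first enzymes of the pathway, went from 31 to 66.9 and from 61.6 to 83.7. A run of 5, on chrVIII:222877-230696, held RPP1, PAN5, SSZ1, RRP3 and SSF1. Across the genome, 69 of 480 genes that stood higher late had a next neighbour that also did (14.4%), beside 10.2% of all placed genes, and the figures on the lower side were 76 of 494 (15.4%) beside 10.5%. Overlapping ends can share reads between neighbours, and strand-specific counting is not stated.

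Sulfur, vitamin, metal and membrane pathways gave mixed lists. Their shares are to be read against 10.4% higher and 10.5% lower over all genes, and their medians by log2 share against -0.78. Of 36 sulfur and methionine genes 11 stood higher (30.6%) and 3 lower (8.33%). Their median was 5.98 points by rank and -0.24 on the log2 share scale, above the -0.78 of all genes. MET14, which activates sulfate, had 17.4, 15.7 and 17.7 TPM early and 183, 124 and 149.6 FPKM late, and CYS3, cystathionine gamma-lyase, which can also release hydrogen sulfide, had 50.2, 47.8 and 56.5 TPM early and 687, 626 and 494 FPKM late. MET4, the activator of the sulfate assimilation genes, was lower late at 171, 169 and 171 TPM early and 7.0, 3.74 and 7.71 FPKM late. Of 28 genes for thiamine, biotin and vitamin B6, 10 stood higher (35.7%) and 1 lower (3.57%). Their median was 8.35 points by rank and -0.14 by log2 share. PHO3, which takes phosphate off thiamine phosphates outside the cell, went from 21 to 81.7. The iron list had 7 higher (22.6%) and 3 lower (9.68%) of 31 and a median of 1.74 points, -0.56 by log2 share. Its 31 members include copper genes such as CTR1, CUP1-1 and CUP1-2 and the vitamin transporter genes VHT1 and BIO5. The iron oxidase FET3 went from 64.1 to 88.5. FIT3, a cell wall mannoprotein that binds iron carriers, had 864, 983 and 1152 TPM early and 6.33, 65.8 and 55 FPKM late, with late control 1 a long way below the other late libraries.

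Cell wall genes had 14 of 43 higher (32.6%) and 1 lower (2.33%) late, against 10.4% and 10.5% of all genes. EXG1, the main exo-glucanase, had 10.3, 10.9 and 12.6 TPM early and 294, 197 and 238 FPKM late, FKS1, a catalytic subunit of glucan synthase, had 19.8, 20.7 and 24.8 TPM early and 266, 203 and 203 FPKM late, and CWP1, a wall mannoprotein, was the lower one at 599, 532 and 865 TPM early and 22.4, 45.8 and 26.5 FPKM late. ELO2 and ELO3, which lengthen very long fatty acids, went from 36.6 to 79.6 and from 25.3 to 89.6. Ergosterol genes had 4 of 26 higher (15.4%) and 2 lower (7.69%). Their median was 10.1 points by rank and -0.042 by log2 share, beside -0.78 for all genes on that scale. Of 68 genes for other amino acids 8 stood higher (11.8%, near the 10.4% of all genes) and 0 lower. By non-overlap alone 39 of the 68 were higher and 19 lower, against 37.8% and 38.5% of all genes. SER2, phosphoserine phosphatase, had the largest difference of the list and went from 7.89 to 56.

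A further set of lists is given by counts, to be read against 10.4% higher and 10.5% lower over all genes. The counts higher and lower were 0 and 2 of 37 for the proteasome, 3 and 3 of 37 for heat shock proteins and chaperones, 0 and 1 of 48 for the cell cycle and DNA replication, 1 and 0 of 11 for histones, 0 and 0 of 19 for the vacuolar proton pump, 3 and 2 of 26 for the unfolded protein response, 2 and 1 of 20 for fatty acid synthesis, 1 and 4 of 25 for phosphate, and 0 and 1 of 11 for vacuolar proteases. Unfolded protein response genes were higher in 11.5%, near the share over all genes, and lower in 7.69%. Phosphate genes were higher in 4% and lower in 16%, on a small count of 4 of 25. By non-overlap alone 37.8% of all genes were higher and 38.5% lower. In the same order of lists, these counts were 7 and 15, 10 and 19, 22 and 12, 5 and 4, 15 and 1, 8 and 10, 5 and 9, 12 and 9, and 1 and 9. The vacuolar proton pump thus lay mostly higher (15 of 19) and vacuolar proteases mostly lower (9 of 11), by fewer than 20 points in most members. Among chaperones the cytosolic, ribosome-bound SSB1 went from 75.2 to 97.2 and SSZ1 from 58.9 to 87.8, while the disaggregase gene HSP104 went from 84.2 to 46.5. The small heat shock genes HSP26 and HSP12 ranked near the top in both stages, from 99.4 to 96.9 and from 99.7 to 93.7, although HSP12, which stabilises membranes, took 0.498, 0.493 and 0.465% early and 0.0465, 0.0436 and 0.0901% late of the summed values.

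Regulators of growth and ageing mostly stood lower where they passed the rule. Of 45 ranked members of the nutrient signalling list, 8 stood lower (17.8%) and 1 higher (2.22%), against 10.5% and 10.4% of all genes. TPK2, a catalytic subunit of protein kinase A, had 207, 182 and 175 TPM early and 13.5, 17.8 and 19 FPKM late. RAS2, which activates that pathway, went from 65.6 to 33.6. GIS1, a factor of post-diauxic genes, had 31, 26.9 and 25.2 TPM early and 1.83, 2.21 and 3.23 FPKM late, and HAP4, the inducible subunit of the respiratory activator, had 67.8, 54.4 and 68.9 TPM early and 4.75, 6.07 and 9.99 FPKM late. In both genes each late library ranked below each early one. NPT1, an enzyme of NAD salvage, was the one that stood higher, at 20.2, 18 and 22.5 TPM early and 121, 50.3 and 76.4 FPKM late. The deacetylase gene SIR2 went from 36.2 to 35.3, the kinase genes TOR1 from 11.3 to 17.3 and SCH9 from 68.3 to 72.2, none of them past 20 points.

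Some large differences belonged to no list. AQR1, a plasma membrane exporter linked to amino acid excretion, had 5.08, 5.89 and 5.8 TPM early and 1635, 1032 and 1156 FPKM late, and its 73.5 points were the most of any named gene that overlaps no other. IRC7, a beta-lyase of sulfur compounds, went from 20.4 to 81.9. On the lower side CSN9, a subunit of the COP9 signalosome, had 519.8, 473 and 481 TPM early and 5.16, 1.56 and 2.64 FPKM late and a difference of -79 points. SWI1, a subunit of the SWI/SNF chromatin remodeller, had 198, 202 and 185 TPM early and 2.15, 1.84 and 2.73 FPKM late, and CDH1, the activator of the anaphase-promoting complex in G1, had 65.3, 62.9 and 57.2 TPM early and 1.37, 1.3 and 1.3 FPKM late. These 3 genes lay in the upper part of the early ranks and the lowest part of the late ones. Of 3964 ranked genes on no list, 326 stood higher and 426 lower, beside 543 (10.4%) and 545 (10.5%) of all 5207 genes.

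The late libraries disagreed on a small set. In 169 genes (3.25%) the 3 late ranks spanned at least 20 points, against 13 genes early. USV1, a zinc-finger factor, had 915, 874 and 866 TPM early and 1.14, 45.3 and 22.9 FPKM late, and HAC1, the activator of the unfolded protein response, had 918, 828 and 848 TPM early and 4.62, 70.6 and 42.8 FPKM late. Late control 1 was lowest in both. MDJ1, a mitochondrial co-chaperone, and RPN3, a proteasome subunit, were lowest in late control 2. MDJ1 had 95.8, 91.5 and 93.1 TPM early and 32.6, 4.21 and 22.5 FPKM late, and RPN3 had 40.01, 39.3 and 40.4 TPM early and 16.5, 1.12 and 12 FPKM late. Leaving out any of the 6 libraries kept 912 of the 1088 calls (83.8%), and RPN3 kept its call in 5 of the 6 repeats.

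Promoter letters were counted in the 300 bases before each start codon, on both strands, for the 4877 ranked genes with a promoter in the reference. PAC was in 19.3% of all promoters, 86.7% of ribosome assembly genes and 39.4% of genes that stood higher late, and in 15.5% of those that stood lower. The RRPE core was in 15.6% of all, 82.5% of ribosome assembly genes, 43.8% of genes higher late and 7.86% of those lower. Of 286 genes with both, 131 (45.8%) stood higher late, with a median difference of 18.3 points. With the ribosome assembly list left out, 75 of 200 such genes (37.5%) did. Genes with PAC alone stood higher in 63 of 653 cases (9.65%), genes with the RRPE core alone in 85 of 477 (17.8%) and genes with neither in 214 of 3461 (6.18%). These shares describe the letters and not any factor's binding.

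The STRE showed the opposite side. It was in 22.8% of all promoters, 10.5% of those of genes higher late, 41.8% of those lower and 51.5% of the stationary-phase list. Of 3766 genes without it 7.86% stood lower late, of 939 with a single copy 17.4%, and of 172 with more copies 29.1%, whose median difference was -10.8 points. Other letters were frequent in the lists they are known for. The proteasome element PACE (GGTGGCAAA) was in 73.0% of proteasome promoters and 1.25% of all, the Gcn4 site TGACTC in 61.8% of other amino acid genes and 8.20% of all, and CCAAT in 83.3% of respiratory chain genes and 41.9% of all, while genes higher and lower late held CCAAT in 39.96% and 44.4%. PAC and the RRPE core cannot share letters as searched, whereas the STRE, the Gcn4 site and PACE can share end letters with one or the other.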

How the data were processed

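RNA was extracted with TRIzol and treated with DNase I, libraries were made with a TruSeq kit and sequenced as paired ends on a NovaSeq, and reads were trimmed with SeqPrep and Sickle and aligned with TopHat, per the labels' protocols. Bowtie 0.12.2 and genome build R64 are named in the submitters' processing notes. No source used here gives the quantification program or the annotation. The authors deposited 1 table per stage. The early table holds values whose 3 control columns sum to 998109 to 998250, read as TPM from those sums since the deposited column names carry no unit, and the late table holds FPKM per the file headers. No counts were given, so the depth behind each value is unknown and no interval or floor was computed. Ribosomal RNA, mitochondrial and other entries outside the nuclear open reading frames were left out, and the libraries treated with NaHS were not analysed here.

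Ranks were taken within each library over the 5207 genes, as 100 times the rank minus 0.5, divided by 5207. Errors are SDs of 3 libraries, which may be technical. Because the tables were scaled separately, no test across them was made, and a gene was placed by non-overlap and 20 points. Shares are of the summed values of the 5207 genes, and log2 ratios of gene pairs needed no pseudocount. The 35 lists, the pairs and the members were chosen with earlier results of these data known. Genes are named by size within the whole table and within each list, and further list members named for their role were chosen after their values were seen. Of the 5207 genes, 4887 had coordinates in the R64 reference (RefSeq); 497 overlap another gene or are not in it, so their reads may be shared. Python 3.11.15, numpy 2.4.6, pandas 2.3.3, scipy 1.17.1 and matplotlib 3.10.9 were used, and the procedure was tested on simulated data. Alternatives changed the point threshold, the scale, the treatment of late zeros, a minimum level, overlapping genes, gene length and each library in turn.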

Additional observations from a re-analysis of the deposited data

How the results depend on the processing

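The main counts were 543 higher and 545 lower late. With at least 10 points they were 1166 and 1154, with at least 30 points 224 and 227, and by non-overlap alone 1968 and 2003. With late zeros ranked lowest 853 stood lower, on log2 share 2291 stood lower, on log2 over the library median 1385 stood higher and 1194 lower, and on normal scores 928 and 899; the counts moved with the scale and the threshold by construction. Late zeros ranked lowest shared 516 of the 543 higher and 317 of the 545 lower genes. Leaving out each library gave 492 to 573 higher and 508 to 569 lower, both lowest without late control 1. A minimum mean of 10 (531 and 510), named genes without overlap (436 and 434) and centring by length (491 and 504) stayed within 1.5 times, but over fewer genes. The minimum mean of 10 left 3218 genes, among them 297 of the 543 higher and 303 of the 545 lower ones. Of these, 297 and 302 kept their call. The rest of the 543 and 545 had a mean below 10 in the early or the late stage. The count of 24 gene pairs stayed within 1.5 times under every alternative run. Medians of lists changed sign for the cell cycle at -5.31 points with a minimum mean of 10. With late zeros ranked lowest they did so for nutrient signalling at 0.17 and the proteasome at 0.44 points, where the median over all genes was 1.95. On log2 share they did so for the cell cycle at -0.44, ergosterol at -0.042 and iron at -0.56. The same held for sulfur at -0.24, thiamine, biotin and vitamin B6 at -0.14 and the vacuolar proton pump at -0.12. The median over all genes was -0.78 on that scale, and each of these lists stayed above it. The cause was not tested. No paired analysis was possible because no test was made across the tables and nothing ties the replicate numbers to shared cultures. Unknown depth limits what can be said of low values and of zeros.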

Other observations

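The most abundant genes differed between stages. CCW22 ranked first in every early library, at 14839, 15422 and 13915 TPM early and 4751, 6946 and 4761 FPKM late. It was followed by the glucokinase gene GLK1 at 8934, 8970.1 and 7875 TPM early and 499, 2588 and 1327 FPKM late. The copper metallothionein genes CUP1-1 and CUP1-2 were among the 10 highest late and carried the same value in each late library, so they hold 1 measurement.

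Genes listed at 0 late were not ranked. Of the 1051 that were above 0 in all early libraries and at 0 in at least 1 late library, 61 averaged 100 TPM or more early. ALD6, which makes acetate from acetaldehyde, was at 1308, 1434 and 1386 TPM early and at 18.7, 0 and 5.07 FPKM late. RPL39, a small ribosomal protein gene, was at 0 in late controls 1 and 3 and at 7846 FPKM in late control 2. TSL1, a subunit of trehalose synthase, was at 215, 212 and 192 TPM early and at 0, 0 and 5.35 FPKM late. By list, 19 of 139 ribosome assembly genes, 10 of 80 mitochondrial ribosomal protein genes, 10 of 58 cell cycle genes and 7 of 24 trehalose and glycogen genes were affected. Over all open reading frames in both tables it was 1051 of 6685. Among these lists only trehalose and glycogen lay far above that share, and the others were near it. Gene length moved little with the difference in rank, with a Spearman correlation across 4887 genes of -0.0057, and genes are not independent replicates.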
